A study of Oryza sativa with 6 samples.

Results

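The genes described here make the polysaccharides of the rice cell wall. They are the genes with a RAP locus (the gene identifier of the Rice Annotation Project) that the study listed as polysaccharide synthesis genes of the cell wall. The list holds 152 genes, of which 146 have a RAP locus, 134 of these have a probe on the array and 113 passed a filter on signal, out of 29690 loci with a probe and 21842 that passed on the whole array. Of the 33 loci with no value, 12 had no probe and 21 had probes that stayed under a signal of 100 in both channels of all arrays. The members fall into 7 families of glycosyltransferases, named CSL, XXT, XGT, XFT, RGP, GSL and GT8 in the list.

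Roots of 6-day-old seedlings of the cultivar TN-67 were compared on Agilent arrays with 2 dyes. RNA of Hg-treated roots was labeled with Cy5 and RNA of water-treated roots with Cy3 on each of 6 arrays, 3 for short-term exposure, with RNA of 1 h and 3 h pooled, and 3 for long-term exposure of 24 h, called short and long exposure from here on. Water was the control treatment in both exposures, and it is not stated whether they shared control RNA. The labels give the dose as 25 mM and the study's methods give 25 µM. Each value is a log2 ratio of Hg over water on 1 array, so that 1 means a 2-fold higher and -1 a 2-fold lower signal after Hg, and a gene is represented by its brightest probe. A gene is called upregulated or downregulated where the adjusted p of limma was under 0.05 (Benjamini-Hochberg over all genes tested) and the mean ratio changed at least 2-fold. The labels name roots as the material, and the methods state that RNA came from root tips. In such tissue, fewer cells of a type and less RNA per cell cannot be told apart.

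The wall of a grass root consists of cellulose microfibrils in a matrix of other polysaccharides. Cellulose is spun at the plasma membrane by cellulose synthases (CESA), whereas related cellulose synthase-like (CSL) proteins make the backbones of mannan, xyloglucan and the mixed-linkage glucan that grasses are known for. Xyloglucan receives its side chains in the Golgi from xylosyltransferases (XXT), galactosyltransferases (XGT) and fucosyltransferases (XFT). Reversibly glycosylated polypeptides (RGP) supply arabinose donors, glucan synthase-like (GSL) enzymes make callose, and glycosyltransferase family 8 (GT8) holds enzymes of pectin and xylan synthesis.

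The water channel was well above background on 6 of 6 arrays for the root genes OsNIP2;1, a silicon transporter, OsPIP2;5 and OsPIP2;3, both aquaporins. Of 2 loci taken as markers of green tissue, the water channel was well above background on 5 and 4 of 6 arrays, and their part in the results was not tested. Replicate arrays of an exposure correlated between 0.912 and 0.918 over all genes at short and between 0.885 and 0.927 at long exposure. The dyes were not swapped, and any dye bias of a probe is part of all its ratios. The short-term arrays lay on 2 slides (replicate 1 on 1 of them) and the long-term arrays on another, so slide and exposure cannot be told apart in the difference between exposures. The labels number the replicates, and the study's methods state that they are biological.

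More of these genes were downregulated than upregulated at both exposures. With short Hg exposure, 7 of 113 members were upregulated (6.19%, against 11.6% of all genes tested) and 18 were downregulated (15.9%, against 8.09% of all genes), so that 22.1% were called either way, against 19.7%. With long exposure, 4 of 112 were upregulated (3.57%, against 8.99%) and 16 downregulated (14.3%, against 6.03%), or 17.9% either way, against 15%. The median log2 ratio of the members was -0.46 at either exposure, beside -0.13 over all genes at short and -0.06 at long exposure. The mean ratio was below 0 for 91 of 113 members at short exposure (80.5%, against 58.2% of all genes). At long exposure it was below 0 for 87 of 112 (77.7%, against 54.4%). At both exposures 74 members were below 0, a count with no share of all genes beside it here and not read as particular to the members. The shares of all genes in this paragraph also stand beside the counts of calls and of genes below 0 given for families and smaller groups further on.

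Most of the shifts were smaller than 2-fold. By limma's adjusted p alone, with no fold threshold, 77 members were lower after short exposure (68.1%, against 41% of all genes) and 15 were higher (13.3%, against 27.7%). After long exposure 66 were lower (58.9%, against 35.3%) and 16 higher (14.3%, against 28.6%). A total of 53 members were lower by this criterion at both exposures. The share of all genes lower at both is not given here, so this count is not read as particular to the members. The shares of all genes by adjusted p alone also stand beside such counts for families and smaller groups further on. The median of the members was below 0 on each of the 6 arrays. It was -0.65, -0.40 and -0.41 on the short-term arrays and -0.34, -0.51 and -0.46 on the long-term arrays, so that short-term replicate 1 was the lowest, while the medians of all genes lay between -0.13 and -0.05.

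Of the members tested at both exposures, 7 were downregulated and 2 upregulated at both. A further 11 were called down and 5 up with short exposure and not with long exposure, and 9 were called down and 2 up the other way round. No member was called in opposite directions, and 76 were called at neither. The same overlap is not given here for all genes, so these counts are not read as particular to the members. All 25 calls at short and all 20 at long exposure had the same sign on each array. The calls were made from these same arrays, so this is no separate support for them. The counts depended on the background correction and dye normalization, which were changed together in 1 alternative. With normexp background correction (offset 50) and loess, 5 members were upregulated and 4 downregulated at short exposure, and 4 and 8 at long exposure. Upregulated genes then made up 55.6% of the called members at short exposure in place of 28%, and 33.3% in place of 20% at long exposure. With it, 14 downregulated and 2 upregulated members lost their short-term call. They are Os01g0766900, Os06g0625700, Os08g0434500 and Os09g0422500 (CSL), Os03g0128100 (GSL), Os01g0727100, Os05g0485500 and Os09g0531800 (GT8), Os06g0212600 and Os09g0458100 (XFT), and Os04g0574100, Os06g0342000, Os07g0567000, Os08g0438600, Os10g0458900 and Os10g0459700 (XGT). The long-term call was lost for 8 downregulated members and 1 upregulated one, namely Os07g0551700 and Os09g0422500 (CSL), Os03g0306100 (XXT), Os02g0763800 and Os06g0211600 (XFT), and Os01g0107700, Os03g0324700, Os04g0574100 and Os07g0188700 (XGT). All of these kept their sign and an adjusted p under 0.05 (limma) and fell short of 2-fold. The medians of the members stayed below 0 (-0.25 and -0.29) and below those of all genes (0.00 and 0.01).

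**Figure D1:**
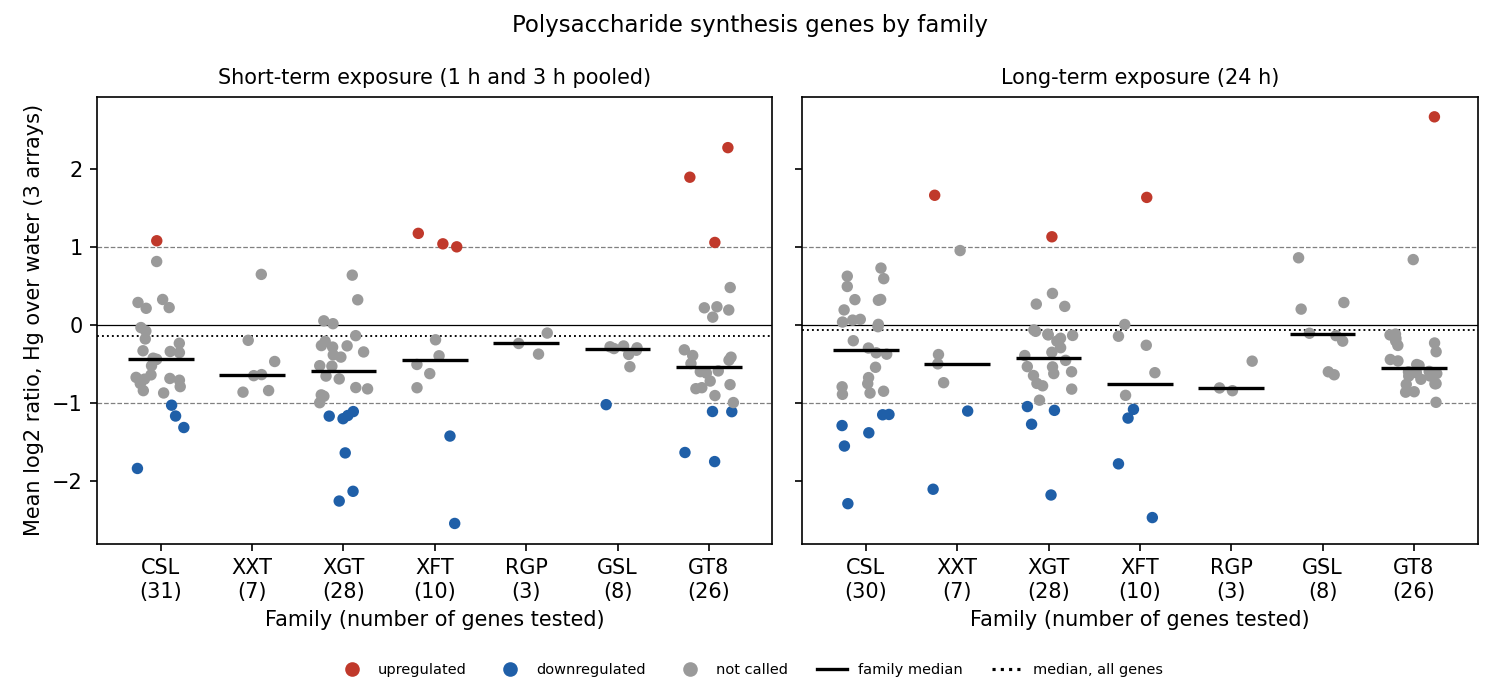
Mean log2 ratio of Hg over water of each member tested (points, 3 arrays an exposure, fewer where a spot was an outlier), by family and exposure, with red for upregulated, blue for downregulated and gray for genes not called. Black bars are family medians, which lie below 0 in all 7 families at both exposures, dashed lines mark 2-fold and dotted lines the median of all genes.

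The loci listed as cellulose synthase were lower after Hg almost throughout. The list describes 10 loci as cellulose synthase, all with a probe that passed. They include Os10g0578200, which is known in rice as a cellulose synthase-like gene (CSLD1). Their names there do not follow the rice CESA numbers, so the loci are used here. Of the 10, 9 were below 0 at short exposure (all 10 with outlier spots kept) and all 10 at long exposure, with medians of -0.69 and -0.71. By limma's adjusted p alone, 9 were lower at short and 8 at long exposure and none was higher. Over single arrays, 27 of 29 short-term and 29 of 30 long-term values were below 0. Only 1 of the 10, Os09g0422500, reached the 2-fold call at short exposure. At long exposure 2 did, namely Os09g0422500 and the cellulose synthase-like Os10g0578200.

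The 3 loci known in rice as the cellulose synthases of secondary walls, which thicken in xylem and fiber cells, were lower at both exposures. Os09g0422500 (chromosome 9) had ratios of -1.80, -0.78 and -1.36 on the short-term arrays and -1.16, -1.27 and -1.44 on the long-term arrays, all below 0. It was downregulated 2.48-fold (limma, adjusted p = 0.000937) and 2.44-fold (adjusted p = 0.00131), from the dimmest probe of the 10, with a highest signal of 291. Os10g0467800 was lower by less than 2-fold, with -0.69 ± 0.05 (SD, n = 3) at short and -0.67 ± 0.16 at long exposure. Os01g0750300 was at -0.44 ± 0.01 and -0.54 ± 0.11 (n = 3 each). The adjusted p of both was at most 0.00158 at either exposure (limma).

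The loci known to act in primary walls, those of growing cells, were bright and shifted less than 2-fold. Os07g0208500 was at -0.68 ± 0.37 and -0.85 ± 0.09 (SD, n = 3) at short and long exposure, and Os05g0176100 at -0.42 ± 0.30 and -0.79 ± 0.11. Os07g0424400 went the other way in size, with -0.70 ± 0.28 and -0.29 ± 0.07, and Os03g0837100 did as well, with -0.73 ± 0.28 and -0.35 ± 0.01. The difference between exposures passed the test for none of these 4 (limma, adjusted p between 0.0657 and 0.51), which does not show that the exposures were alike. Os03g0808100 was at -0.84 ± 0.20 and -0.37 ± 0.43, and its other probe was lower than the brightest one, at -1.36 and -1.19. The brightest CSL member was Os07g0252400, at 0.12 and 0.32 on the 2 short-term arrays where its spot was no outlier and at -0.56, -0.83 and -0.86 on the long-term arrays. With the outlier spot kept, as in the deposited table, its short-term mean was -0.021 and thus below 0. Its ratio was higher on both short-term arrays than on any long-term array, and the difference of -0.97 had an adjusted p of 0.00418 (limma).

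Os10g0578200, listed as Cellulose synthase-9, showed the strongest fall of the CSL family, and it was seen at long exposure. This locus is known in rice as the cellulose synthase-like gene CSLD1, which acts in root hair growth. Its ratios were -0.36, -0.37 and -0.32 on the short-term arrays and -2.16, -2.11 and -2.60 on the long-term arrays, so that the groups did not overlap. The processed signals on the long-term arrays were 688, 963 and 1009 in the water channel and 154, 224 and 166 in the Hg channel. It was downregulated 4.88-fold at long exposure (limma, adjusted p = 7.23e-05), and the difference between exposures was -1.94 (adjusted p = 0.000371).

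**Figure D2:**
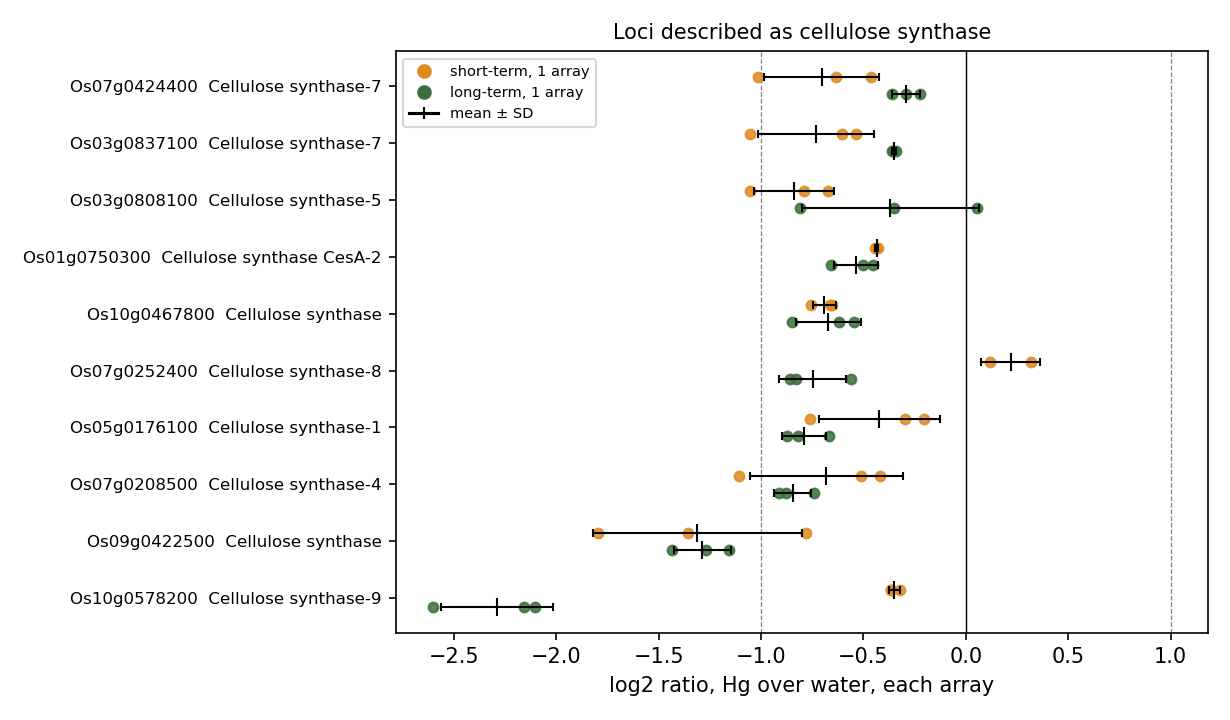
Log2 ratio of Hg over water on each array (points) for the 10 loci described as cellulose synthase, with the mean and SD (black), orange for short-term and green for long exposure. All long-term means lie left of 0, and Os10g0578200 stands apart at long exposure only, with values between -2.60 and -2.11.

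In the whole CSL family, 31 loci were tested at short exposure and 30 at long exposure. With short exposure 1 was upregulated (3.23%, against 11.6% of all genes) and 4 were downregulated (12.9%, against 8.09%). With long exposure 0 were upregulated (against 8.99%) and 6 downregulated (20%, against 6.03%) by limma, while 6 were higher and 14 lower there by adjusted p alone. The medians were -0.44 and -0.32. The 4 genes downregulated at short exposure were downregulated at long exposure too.

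These include genes described after the backbones of the matrix. Os01g0766900, described as CSLC7, of the subfamily that makes the xyloglucan backbone in Arabidopsis, had ratios of -1.44, -0.84 and -0.80 at short and -1.34, -1.54 and -1.76 at long exposure. It was downregulated 2.03-fold (limma, adjusted p = 0.00106) and 2.93-fold (adjusted p = 0.000342), and the first call was lost without short-term replicate 1, where the mean was -0.82, and with median-centred arrays (-0.90). Os08g0434500, described as cellulose synthase-like A3, of the mannan synthase subfamily, had ratios of -1.45, -0.96 and -1.08 at short exposure, and its long-term ratios ranged from -1.51 to -1.12. It was downregulated 2.24-fold and 2.60-fold (limma, adjusted p = 0.000344 and 0.000309). Another CSLC gene, Os03g0770800 (described as CSLC9), was at -0.64 ± 0.14 (SD, n = 3) at short and at 0.01 ± 0.03 at long exposure, a difference of 0.65 (limma, adjusted p = 0.00359).

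Genes next to each other did not all move alike. On chromosome 7, where rice keeps a cluster of CSLF genes of the mixed-linkage glucan, 3 of 6 listed loci passed the filter. Os07g0551700 was downregulated at both exposures, with ratios of -2.16, -1.49 and -1.86 and of -1.37, -1.11 and -0.97 (limma, adjusted p = 0.00011 and 0.000781). Os07g0553000 was at 0.23 ± 0.35 (SD, n = 3) and 0.63 ± 0.41, and Os07g0553300, with a highest signal of 158.5, at 0.82 ± 0.33 and 0.33 ± 0.25. Os07g0551700 was below 0 on all 6 arrays, whereas Os07g0553300 was above 0 on all 6. Whether probes of neighbors in such clusters bind more than 1 transcript was not tested. CSLF6 (Os08g0160500), the main synthase of mixed-linkage glucan in cereals, had too few spots without outlier marks for a long-term test with its brightest probe. At short exposure it was at -0.25 and -0.40 on 2 arrays, and its other 2 probes were at -1.58 and -0.61 at long exposure. The probe at -1.58 was called downregulated in a fit on all probes past the filter.

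Some CSL genes had a higher ratio at long than at short exposure. Os10g0341700, described as a cellulose synthase family protein, had ratios of -0.64, -0.53 and -1.07 on the short-term arrays and of 0.28, 0.76 and 0.76 on the long-term arrays, with no overlap. The difference was 1.35 (limma, adjusted p = 0.0024). Os04g0429500, described as cellulose synthase-like H2, was at -0.17 ± 0.13 (SD, n = 3) and 0.50 ± 0.03, and Os09g0478100, a cellulose synthase family protein, at -0.23 ± 0.19 and 0.73 ± 0.22. Their differences of 0.67 and 0.96 had adjusted p-values of 0.00269 and 0.00328 (limma) and stayed under 2-fold. The mannan synthase gene Os02g0192500 was at -0.72 and -0.62 on 2 short-term arrays and at 0.47, 0.28 and 0.22 on the long-term arrays. The one CSL gene that was upregulated, Os06g0625700, a family 2 glycosyltransferase, had ratios of 1.21, 0.61 and 1.44 at short and of -0.26, -0.53 and 0.19 at long exposure. Its highest signal was 246, and the call (limma, adjusted p = 0.00257) was lost without short-term replicate 3.

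The xylosyltransferase genes (XXT) held the gene with the largest rise between exposures. All 7 passed the filter, with 0 calls at short exposure, against 19.7% of all genes (6 were lower and 1 higher by limma's adjusted p alone). At long exposure 1 was called up (14.3%, against 8.99%) and 2 down (28.6%, against 6.03%). Os02g0723200, described as an alpha galactosyltransferase, had ratios of -0.35, -0.38 and -0.66 on the short-term arrays and of 1.47, 1.71 and 1.83 on the long-term arrays. The Hg signal on the long-term arrays was 7826, 9485 and 9098, against 2834, 2895 and 2558 in the water channel. It was upregulated 3.18-fold at long exposure (limma, adjusted p = 0.000121), and the difference of 2.13 had an adjusted p of 0.000297.

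Os12g0149300, described as a xyloglucan 6-xylosyltransferase, showed the reverse. Its ratios were -0.72, -0.91 and -0.88 at short and -2.06, -1.97 and -2.28 at long exposure, all below 0 and without overlap between exposures. It was downregulated 4.30-fold at long exposure (limma, adjusted p = 5.53e-05). The brightest XXT gene, Os11g0546500, was above 0 on all 6 arrays, at 0.65 ± 0.22 (SD, n = 3) and 0.96 ± 0.13, just under the 2-fold line. The neighbors Os03g0305800 and Os03g0306100 were both lower, at -0.63 ± 0.23 and -0.86 ± 0.15 at short and at -0.74 ± 0.03 and -1.10 ± 0.16 at long exposure, where the second was downregulated (limma, adjusted p = 0.000249).

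Fucosyltransferases (XFT) add the terminal sugar of the side chain, and their genes included the strongest fall of all members. Of 19 loci, 10 passed the filter, with 3 up (30%, against 11.6% of all genes) and 2 down (20%, against 8.09%) at short exposure. At long exposure 1 was up (10%, against 8.99%) and 4 were down (40%, against 6.03%). Os04g0449200, also the brightest of the family, had ratios of -2.47, -2.62 and -2.54 at short and of -1.72, -2.95 and -2.73 at long exposure. The signal in the short-term water channel was 3925, 5208 and 3532 and that in the Hg channel 709, 846 and 609. It was downregulated 5.82-fold and 5.53-fold (limma, adjusted p = 0.000164 and 0.000305), and the exposures overlapped. Os09g0458100 was the member of the family that rose at both exposures, with ratios of 1.39, 0.76 and 1.39 and of 1.47, 1.76 and 1.69. It was upregulated 2.27-fold and 3.12-fold (limma, adjusted p = 0.0005 and 0.000268), with a highest signal of 370.

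Fucosyltransferase genes lie in tandem on chromosomes 2 and 6. On chromosome 2, 4 of 5 loci passed. Os02g0763200 and Os02g0763900, both described as galactoside fucosyltransferases, were upregulated with short exposure and not called with long exposure. The first had ratios of 1.12, 1.08 and 0.93 and of -0.09, -0.09 and -0.24, and the second of 0.85, 1.12 and 1.05 and of -0.10, -0.26 and -0.41. Both lay above 0 on all short-term arrays and below 0 on all long-term arrays, and the differences of -1.19 and -1.26 had adjusted p-values of 0.000481 and 0.000699 (limma). The call of Os02g0763900 was lost without short-term replicate 2 or 3. Os02g0763800, which lies between them by locus number, was not higher at short exposure (-0.19 ± 0.22, SD, n = 3) and was downregulated at long exposure (-1.08 ± 0.25; limma, adjusted p = 0.00062), a call lost without long-term replicate 1 (-0.97). Os02g0764200 was at -0.39 ± 0.33 and -0.90 ± 0.21.

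On chromosome 6, 3 of 7 loci passed, and their means were all below 0. Os06g0212600 was downregulated at short exposure, with ratios of -1.84, -1.29 and -1.14, and was at -0.61 ± 0.22 (SD, n = 3) at long exposure. Os06g0212300 was downregulated at long exposure, at -1.19 ± 0.13 after -0.80 ± 0.13. Os06g0211600 had ratios of -1.13, -0.33 and -0.06 and of -1.49, -1.94 and -1.91. Its short-term arrays spread widely. Each channel was well above background on only 1 of 3 short-term arrays, with signals between 12.7 and 76.8, so the difference of -1.28 (limma, adjusted p = 0.0118) rests on dim spots. The highest signal of Os06g0212600 and Os06g0211600 was 165.7 and 179, close to the filter.

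**Figure D3:**
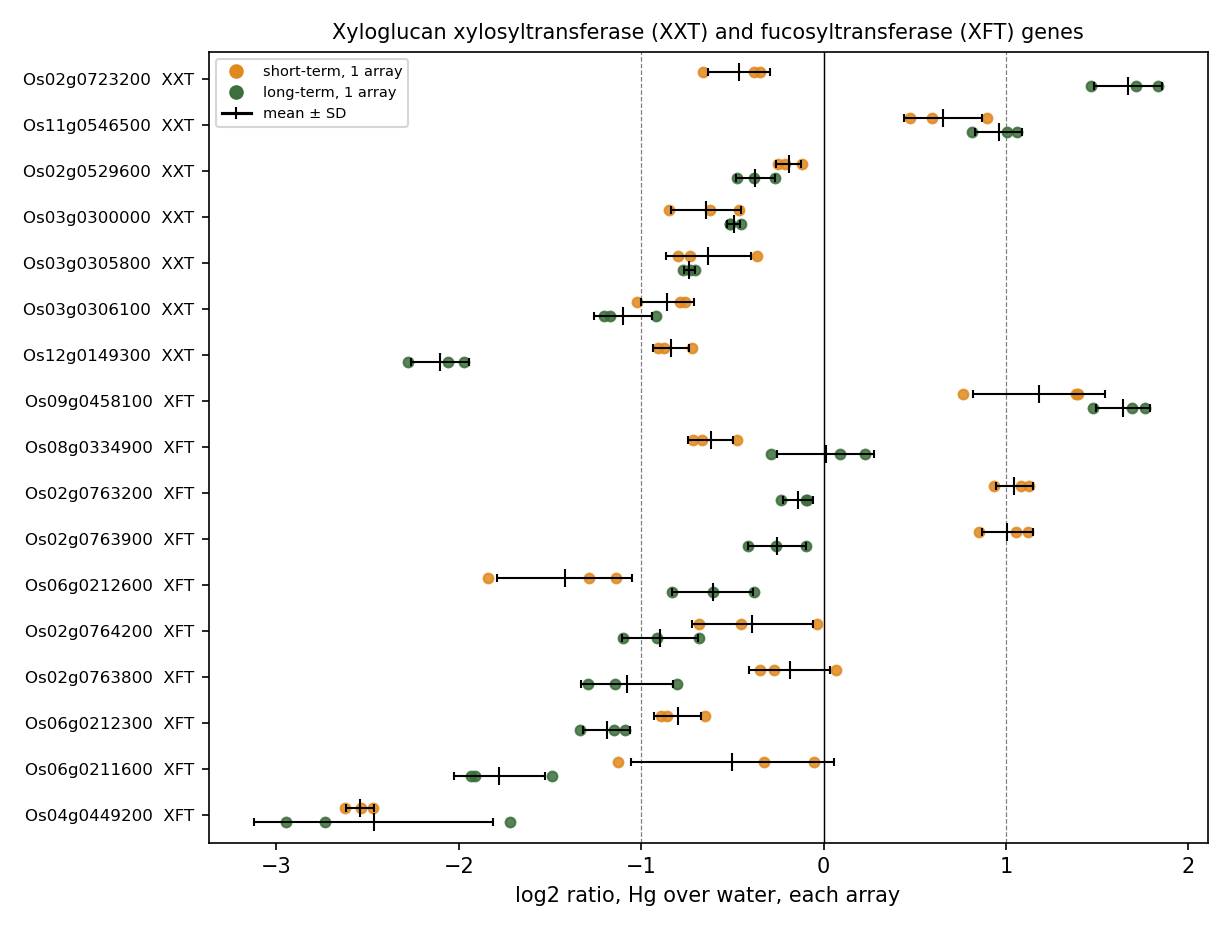
Log2 ratio of Hg over water on each array (points) with mean and SD (black) for the 7 XXT and 10 XFT genes, orange for short-term and green for long exposure. Os02g0723200 moves from below 0 to between 1.47 and 1.83, Os12g0149300 moves below -1.9, and Os04g0449200 is below -1.7 on all 6 arrays.

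The galactosyltransferase family (XGT), whose members belong with exostosin-like proteins, was the family with the most calls down at short exposure. With short exposure 0 of its 28 tested genes were upregulated (against 11.6% of all genes) and 7 downregulated (25%, against 8.09%). At long exposure 1 was upregulated (3.57%, against 8.99%) and 4 were downregulated (14.3%, against 6.03%). By limma's adjusted p alone, 21 were lower and 2 higher at short and 17 lower and 3 higher at long exposure. With normexp and loess, Os12g0224400 alone of the 7 kept its short-term call. Os07g0551700 (CSL), Os04g0449200 (XFT) and Os06g0247000 (GT8) also kept theirs, so the family then no longer stood out by its calls. The 17 genes described as exostosin-like family protein were all below 0 at short exposure, with means from -2.25 to -0.21 and a median of -0.80, and 16 of 17 were below 0 at long exposure.

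On chromosome 10, 2 of 4 neighbors passed, and both were downregulated at short exposure. Os10g0459700, described as a xyloglucan galactosyltransferase, had ratios of -2.36, -2.47 and -1.56 and of -2.35, -2.08 and -2.10, and was downregulated 4.38-fold and 4.52-fold (limma, adjusted p = 0.000145 and 0.000241). Os10g0458900 had ratios of -2.67, -1.62 and -2.48 at short and of -0.64, -1.12 and -0.57 at long exposure, without overlap. The Hg channel of either gene was well above background on only 1 of 3 short-term arrays, with signals between 6.79 and 24.0, so the short-term folds rest on dim spots. With normexp and loess their short-term ratios were -0.63 and -0.62. The difference of Os10g0458900 between exposures was then 0.17 in place of 1.48, and no longer passed the test (adjusted p = 0.00778 before, limma).

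Other members of this family were also downregulated. Os12g0224400, with 2 probes that were both downregulated, had ratios of -1.56, -1.55 and -1.80 at short exposure and was downregulated 3.11-fold (limma, adjusted p = 4.03e-05), and it was at -0.75 ± 0.12 (SD, n = 3) at long exposure. Os08g0438600 was downregulated at short exposure, at -1.11 ± 0.06 (-0.98 with median-centred arrays, not called), and was at -0.13 ± 0.13 at long exposure. Os06g0342000 was at -1.20 ± 0.34 and -0.53 ± 0.32, and was called at short exposure, where 1 of 3 Hg signals was not well above background. Os04g0574100 was downregulated at both exposures, with ratios of -1.34, -0.88 and -1.28 and of -1.22, -1.21 and -1.38 (limma, adjusted p = 0.000184 and 0.000248), and 2 of its 3 probes carried each call. The single gene of the family called upregulated, Os07g0188700, had ratios of -0.27, -0.96 and -0.73 and of 0.43, 1.31 and 1.68. Its highest signal was 211.5, and the call at long exposure (limma, adjusted p = 0.00676) was lost without long-term replicate 3.

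Genes of the same family described after the pectin glucuronyltransferase NpGUT1 of tobacco were called at neither exposure. The means of these 5 lay between -0.28 and 0.64 at short and between -0.17 and 0.41 at long exposure. The brightest XGT gene, Os10g0180000, is 1 of them, at 0.06 ± 0.13 (SD, n = 3) and 0.41 ± 0.16. The 3 neighbors of this kind on chromosome 1, Os01g0926400, Os01g0926600 and Os01g0926700, were at -0.13 ± 0.16, -0.28 ± 0.05 and 0.33 ± 0.21 at short exposure. Os01g0926600 and Os01g0926700 differed between exposures by 0.55 and -0.49, in opposite directions (limma, adjusted p = 0.00352 and 0.0191).

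The 3 RGP genes, a family that holds the UDP-arabinose mutases, were not called and lay below 0 at both exposures, with medians of -0.23 and -0.80. Os03g0599800, the brightest of all members, had ratios of -0.20, -0.17 and 0.07 on the short-term arrays and of -0.79, -0.86 and -0.87 on the long-term arrays, where the water signal was 103800, 114700 and 119800. The long-term ratio of -0.84 was below 0 (limma, adjusted p = 0.000327) and the difference was -0.74 (adjusted p = 0.0024). Its 5 probes ranged from -0.13 to 0.68 at short and from -1.06 to -0.41 at long exposure, so that its direction at short exposure differed by probe. With median-centred arrays the short-term mean was 0.03, with normexp and loess 0.11, and as a mean over probes 0.10. Os07g0604800 was at -0.37 ± 0.12 (SD, n = 3) and -0.80 ± 0.22, and Os04g0660400 at -0.23 ± 0.13 and -0.46 ± 0.07.

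Of the callose synthase genes (GSL), 1 was called. All 8 genes tested were below 0 at short exposure, with a median of -0.31, and 1 of them was downregulated (12.5%, against 8.09% of all genes). At long exposure none was called, against 15% of all genes (2 were higher and 2 lower by limma's adjusted p alone). There 5 of 8 were below 0 and the median was -0.12. Callose is known as a wall polymer of plasmodesmata, cell plates and wound sites. Os03g0128100, described as a family 48 glycosyltransferase, had ratios of -1.21, -0.97 and -0.87 on the short-term arrays and of 0.89, 0.83 and 0.89 on the long-term arrays. It thus lay below 0 on all short-term and above 0 on all long-term arrays, and the difference of 1.88 had an adjusted p of 0.000289 (limma). The short-term call was lost without short-term replicate 1, where the mean was -0.92, and with median-centred arrays (-0.89), and the second probe was at -0.86. The brightest GSL gene, Os06g0112800, was at -0.29 ± 0.23 (SD, n = 3) and -0.10 ± 0.17.

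The GT8 family held the strongest rises of all members. With short exposure 3 of its 26 tested genes were upregulated (11.5%, against 11.6% of all genes) and 4 downregulated (15.4%, against 8.09%). At long exposure 1 was upregulated (3.85%, against 8.99%) and 0 were downregulated (against 6.03%), although 18 were lower there by limma's adjusted p alone and 24 were below 0. The medians were -0.54 and -0.55. Os02g0745400, a family 8 glycosyltransferase, had ratios of 2.36, 1.76 and 1.58 on the short-term arrays and of 2.02, 2.94 and 3.07 on the long-term arrays. It was upregulated 3.73-fold and 6.39-fold (limma, adjusted p = 0.000587 and 0.000289), and both of its probes carried each call. Its signal rose from 178.6, 118.2 and 86.7 in the water channel to 725, 905 and 728 in the Hg channel of the long-term arrays.

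Of the GT8 genes, 4 are described as Avr9/Cf-9 rapidly elicited protein, after a tobacco transcript induced by a fungal peptide. They did not move together. Os07g0646800 had ratios of 1.93, 2.19 and 2.72 at short exposure, where it was upregulated 4.86-fold (limma, adjusted p = 7.6e-05), and of 0.01, -0.34 and -0.18 at long exposure. The difference of -2.45 was the largest among the members (adjusted p = 0.000512, limma). Os02g0739400, the brightest GT8 gene, had ratios of 0.88, 1.13 and 1.19 and of -0.57, -0.50 and -0.43, above 0 on all short-term and below 0 on all long-term arrays, with a difference of -1.57 (limma, adjusted p = 0.000339). Os06g0247000 went down instead, with ratios of -1.81, -1.55 and -1.89 at short exposure, where it was downregulated 3.36-fold (limma, adjusted p = 4.49e-05), and of -0.56, -0.77 and -0.52 at long exposure. Os03g0359600 was at 0.11 ± 0.08 (SD, n = 3) and 0.84 ± 0.09 and was not called.

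The 5 genes described after QUASIMODO1, which acts in pectin synthesis and cell adhesion in Arabidopsis, were not called. Their means lay between -0.76 and 0.24 at short and between -0.46 and -0.11 at long exposure, where all 5 were below 0. The neighbors Os09g0531800 and Os09g0531900 were both lower at short exposure, at -1.63 ± 0.76 and -0.76 ± 0.05 (SD, n = 3). The first was downregulated (limma, adjusted p = 0.00197) from ratios of -2.19, -0.77 and -1.93, with a highest signal of 115.6 and an Hg channel well above background on 1 of 3 short-term arrays. Os05g0485500 and Os01g0727100 were also downregulated at short exposure, at -1.11 ± 0.26 and -1.11 ± 0.14. Both calls were lost with median-centred arrays, at -0.98 each, and that of Os05g0485500 also without short-term replicate 1, at -0.97. Os01g0727100 had a highest signal of 119.9, and each of its channels was well above background on 2 of 3 short-term arrays. With normexp and loess its short-term ratio was -0.33. At long exposure Os05g0485500 was at -0.23 ± 0.20 and Os01g0727100 at -0.75 ± 0.35.

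**Figure D4:**
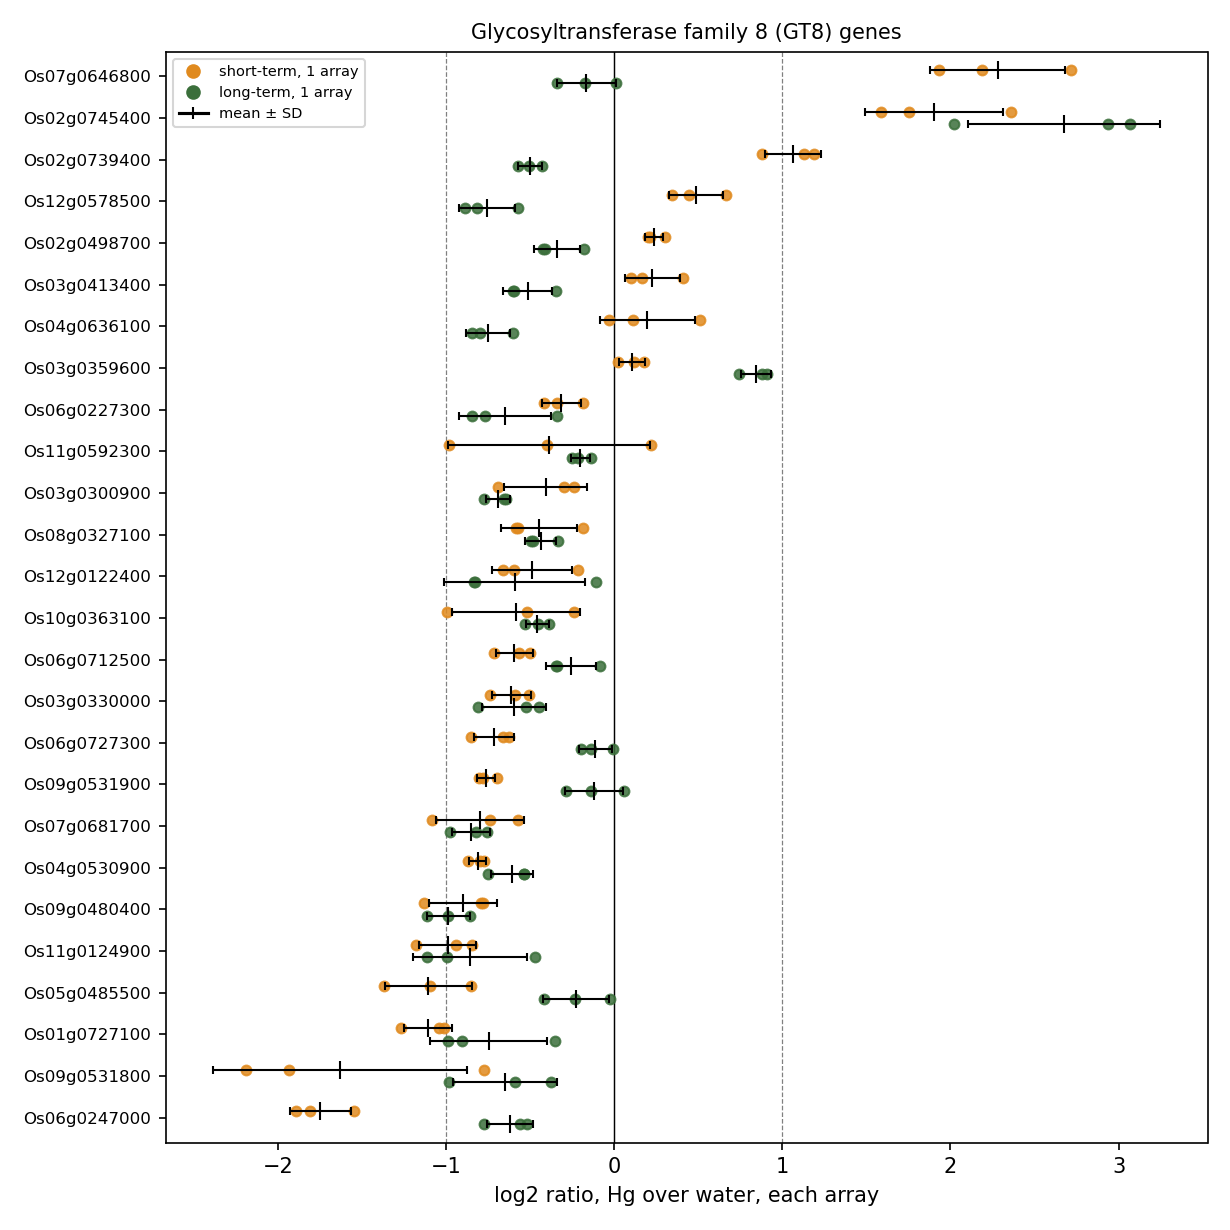
Log2 ratio of Hg over water on each array (points) with mean and SD (black) for the 26 GT8 genes, ordered by the short-term mean, orange for short-term and green for long exposure. The means of Os07g0646800 and Os02g0739400 lie right of the upper 2-fold line at short exposure only, that of Os02g0745400 at both, and 24 of 26 long-term means lie left of 0.

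The ratio differed between exposures by at least 2-fold for 16 of 112 members (limma; 14.3%, against 19.4% of all genes), 6 with a higher ratio at long exposure (5.36%, against 9.23% of all genes) and 10 with a lower one (8.93%, against 10.1%). With normexp and loess, Os06g0211600, Os06g0625700, Os06g0247000, Os07g0188700 and Os10g0458900 no longer differed by 2-fold. The difference over all genes had a median of 0.04 and that of the members 0.07. The 6 with a higher ratio at long exposure were Os02g0723200 (XXT), Os03g0128100 (GSL), Os07g0188700 and Os10g0458900 (XGT), Os10g0341700 (CSL) and Os06g0247000 (GT8). In Os02g0723200, Os03g0128100, Os07g0188700 and Os10g0341700 the mean crossed from below to above 0, while Os10g0458900 and Os06g0247000 stayed below 0. The 10 with a lower ratio were Os07g0646800, Os02g0739400 and Os12g0578500 (GT8), Os10g0578200, Os06g0625700 and Os08g0253800 (CSL), Os06g0211600, Os02g0763900 and Os02g0763200 (XFT) and Os12g0149300 (XXT).

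Os12g0578500, a family 8 glycosyltransferase, was called at neither exposure and had ratios of 0.35, 0.45 and 0.66 on the short-term arrays and of -0.57, -0.89 and -0.81 on the long-term arrays. Os08g0253800, a family 2 glycosyltransferase of the CSL family, had ratios of -0.12, -0.12 and 0.02 at short and of -0.69, -1.52 and -1.22 at long exposure, where it was downregulated 2.21-fold (limma, adjusted p = 0.000991). In both genes the exposures did not overlap. Without long-term replicate 2, Os08g0253800 was no longer called at long exposure (-0.96) or in the difference (-0.88).

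**Figure D5:**
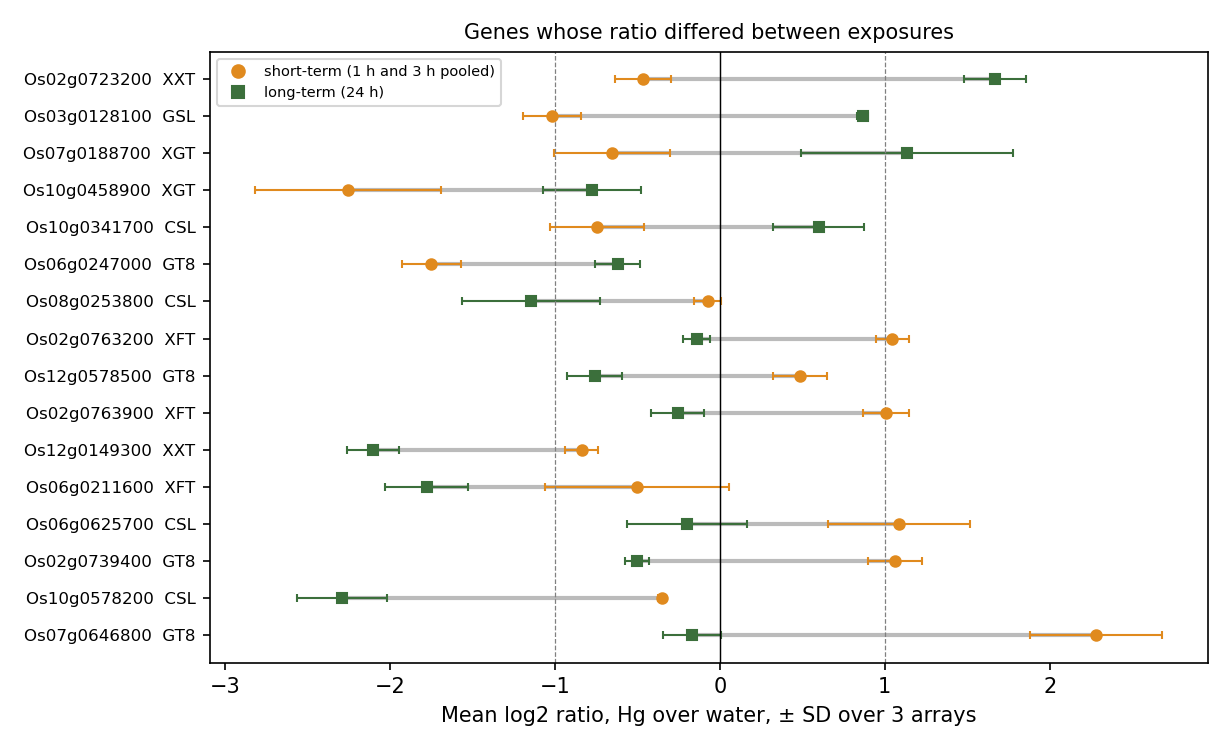
Mean log2 ratio of Hg over water with SD over 3 arrays for the 16 members whose ratio differed at least 2-fold between exposures, orange circles for short-term and green squares for long exposure, ordered by the difference. Differences run from -2.45 (Os07g0646800) to 2.13 (Os02g0723200).

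Other genes of the pathway were those that supply the nucleotide sugars, taken whole from the same source. Of 43 loci, 38 were tested, and 1 was upregulated and 1 downregulated at short exposure, with a median of 0.04. At long exposure 0 were upregulated (8 were higher by limma's adjusted p alone) and 7 downregulated, with a median of -0.37. At short exposure, 18 of 113 polysaccharide synthesis genes (15.9%) and 1 of 38 supply genes (2.63%) were downregulated, against 8.09% of all genes. At long exposure the supply genes had the higher share, with 7 of 38 (18.4%) beside 16 of 112 (14.3%), against 6.03% of all genes.

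Members also differed in how well they were measured. The highest signal of the 36 members called at least once had a median of 978, beside 2149 for those called at neither, and 13 of the 36 stayed under 400. Of the members, 38 had more than 1 probe past the filter. Their probes differed in the call for 5 genes at short and 4 at long exposure and in sign for 3 and 5, and they were never called in opposite directions. The exostosin-like gene Os06g0680900 differed most, at -0.26 with its brightest probe and at -2.04 with its other probe at short exposure. Just under the 2-fold line, between 0.9 and 1 in size, lay 4 members at short and 3 at long exposure, beside 6 and 4 called members within 0.1 above it.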

How the data were processed

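Agilent rice arrays with 2 dyes compared Hg-treated and water-treated roots. Samples were grouped by their labels. The authors deposited scanner output for each array and 1 table of ratios. The intensity values as deposited were made by Feature Extraction (10.7.1.1), which subtracted background, detrended and normalized the dyes (linear and lowess) within arrays, per the file headers. The log10 ratio in the deposited files was made from the processed signals. The table deposited with them was checked on each array: its log2 values are the ratio of processed signals of the same array. The aligner of probes to loci and the genome build are not given in the sources used here.

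Log2 ratios of the processed red over green signal were computed with R (4.3.3), data.table (1.17.8) and limma (3.58.1). Control spots and flagged outliers were removed before averaging replicate spots on the log2 scale. Of 42477 probes, 10973 never reached a signal of 100 and were dropped. The brightest probe represented a locus. Genes needed 2 arrays an exposure. A model with 1 coefficient per exposure was fitted to all genes and 6 arrays (4 residual degrees of freedom), with moderated statistics and Benjamini-Hochberg adjustment. The fit was tested on simulated data. The number of arrays limits the precision.

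Members, families and supply genes came from the locus lists of the study's cell wall table, of which no values were used. Members and lists were chosen with earlier results of these data known. Named genes were the up to 10 largest rises and falls called at each exposure, the up to 5 largest differences each way, the cellulose synthase loci and the brightest gene of each family. Other genes were named after their values were seen. The alternatives were the software's LogRatio, the deposited table, normexp (offset 50, on median signals, as mean signals are not in the files used) with loess, median-centring, no filter, a filter on signals well above background, the mean over probes, outlier spots kept, each exposure alone, replicate number as a block, slide as a random block, the methods' t-test, no fold threshold and leaving out each array. The reference table paired no member with a name by identifier, so descriptions are those of the list. Roles stated for loci are background.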

Additional observations from a re-analysis of the deposited data

Results flagged for a closer look

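The difference between exposures, long-term minus short-term on the log2 scale, passed limma's test and 2-fold for the 10 genes named for it. It was 2.13 for Os02g0723200, 1.88 for Os03g0128100, 1.79 for Os07g0188700, 1.48 for Os10g0458900 and 1.35 for Os10g0341700. It was -2.45 for Os07g0646800, -1.94 for Os10g0578200, -1.57 for Os02g0739400, -1.28 for Os06g0625700 and -1.28 for Os06g0211600. Slide and exposure cannot be told apart in these differences.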

How the results depend on the processing

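The overall counts and medians of the members stayed within set limits (counts within 1.5 times, medians within the spread between arrays) with the software's LogRatio, the deposited table, median-centring, a filter on signals well above background, the mean over probes, outlier spots kept, each exposure alone and slide as a random block. With normexp and loess, which adds an offset of 50 to every signal, 4 and 8 members were downregulated at short- and long-term exposure, the medians were -0.25 and -0.29, and 3 members had a positive difference. All genes shifted by 0.15 and 0.07 in the median under that setting, and by 0.13 and 0.07 under median-centring. With no signal filter the long-term median was -0.35. With the methods' t-test, 2 and 6 members were up- and downregulated at short-term and 2 were upregulated at long-term exposure. With it, 12 downregulated and 5 upregulated members lost their short-term call, and 3 and 2 their long-term call. The upregulated ones were Os02g0739400, Os02g0745400, Os06g0625700, Os07g0646800 and Os09g0458100 at short-term, and Os02g0745400 and Os07g0188700 at long-term exposure. The downregulated ones at long-term exposure were Os02g0763800, Os04g0449200 and Os08g0253800. With no fold threshold the counts were 15 up and 77 down, 16 up and 66 down, and 29 positive and 22 negative differences. No call of a member turned its direction under any of these settings. With median-centred arrays, 5 members lost their short-term call (Os01g0727100, Os01g0766900, Os03g0128100, Os05g0485500 and Os08g0438600) and 1 its long-term call (Os01g0107700, also lost without long-term replicate 2 or 3). As a mean over probes, Os03g0128100 and Os04g0574100 lost their short-term call. The short-term mean of Os07g0252400 turned to -0.021 in the deposited table and with outlier spots kept, and that of Os03g0599800 to 0.11 with normexp and loess, 0.027 with median-centring and 0.10 as a mean over probes. Leaving out 1 array at a time gave 5 to 7 members up and 15 to 21 down at short exposure (median -0.58 to -0.41), 3 to 5 up and 14 to 19 down at long exposure (median -0.49 to -0.45), and 6 to 9 positive and 10 to 12 negative differences. Arrays with the same replicate number did not deviate together (r = -0.24, 0.02 and -0.18 for numbers 1 to 3), and with the replicate number as a block the counts were 7 up and 18 down, 4 up and 16 down, and 6 positive and 11 negative differences. Signals close to background limit the folds of the dimmest probes.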
